A study of Mus musculus with 12 samples.

Results

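Osteoclasts are the cells that resorb bone, and 9 genes that control how they form and attach were followed in the tibia shafts of mice with a dominant collagen defect. They were chosen by symbol in the deposited count matrix, where 9 of 47069 genes matched, and each symbol stood once. The genes encode the cytokine RANKL (Tnfsf11), its decoy receptor OPG (Tnfrsf11b), its receptor RANK (Tnfrsf11a), the macrophage colony-stimulating factor M-CSF (Csf1), interleukin 34 (Il34), the receptor that M-CSF and interleukin 34 share (Csf1r), the adaptor TRAF6 (Traf6), the transcription factor NFATc1 (Nfatc1) and the integrin beta 3 chain (Itgb3). All 9 passed the filter on low counts in each comparison.

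RANKL on osteoblasts, osteocytes and marrow stromal cells binds RANK on myeloid precursors. TRAF6 then passes the signal to NF-kB and MAP kinases, and NFATc1 switches on the genes of the resorbing cell, among them integrin beta 3. OPG is secreted and binds RANKL before it reaches RANK, so the balance of RANKL and OPG is often given as a ratio. M-CSF and interleukin 34 keep the precursors alive through CSF1R. The study addressed the loss of sclerostin, an inhibitor of Wnt signalling made by osteocytes and encoded by Sost, in the Jrt mouse, a model of severe osteogenesis imperfecta.

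RNA sequencing was performed on 12 male mice at 8 weeks of age, with 4 mice in each group. Jrt;Sost-ko mice carried Col1a1Jrt/+ and Sost-/-. Jrt;Sost-het mice carried Col1a1Jrt/+ in the labels and Sost+/- by the study's methods, so both Jrt groups shared the collagen allele and no Jrt group had 2 intact copies of Sost. WT mice were wild type at both loci and were bred in a parallel colony of the same mixed FVB and C57BL6 background, so that colony and genotype cannot be told apart in comparisons with WT. The Sost knockout was a germline allele, and the tissue was a whole shaft with the marrow flushed out. Within a group, mouse numbers 1 to 4 follow the sample list and link no mouse to a mouse of another group.

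Sost, the targeted gene, was at 0.328 to 1.28 CPM (counts scaled to the library total, as edgeR gives them) in Jrt;Sost-ko mice, at 27.1 to 70.2 CPM in Jrt;Sost-het mice and at 28.5 to 72.4 CPM in WT mice. Its log2 fold change was −5.87 in Jrt;Sost-ko versus Jrt;Sost-het (adjusted p = 0.013, edgeR's quasi-likelihood test) and −6.29 against WT (adjusted p = 0.00895), which matches the labels. Totals per library were between 24366061 and 44418863 counts. Markers of osteoblasts summed to between 10449 and 33213 CPM per mouse, and markers of neutrophils to between 15539 and 28944 CPM, so RNA of marrow cells was present in the flushed shafts. Skeletal muscle markers ran from 28.6 CPM in Jrt;Sost-ko mouse 4 to 29910 CPM. Epidermis markers stood at 155 and 653 CPM in WT mice 3 and 4, against 5.99 to 16.3 CPM in the other 10 mice. In bulk tissue, fewer cells of a type and less RNA per cell cannot be told apart.

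The genes lie on 8 chromosomes. In the GRCm38 build, Tnfsf11 (ENSMUSG00000022015) is on chr14:78277445-78308043, Tnfrsf11b (ENSMUSG00000063727) on chr15:54250619-54278484 and Tnfrsf11a (ENSMUSG00000026321) on chr1:105780718-105847981. Itgb3 (ENSMUSG00000020689) is on chr11:104608000-104670476, the chromosome of Sost, and 2640985 bp from it. The exons of Csf1r overlap those of Hmgxb3, a gene on the opposite strand with 706 to 1414 counts per mouse, over 873 bp. Without strand, reads from that stretch cannot be assigned to either gene. Il34 shares 22 and 75 bp of exon with 2 antisense genes of at most 10 counts.

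The promoters of the ligand and of its receptor are shown. The levels of both genes varied together across the mice (r = 0.736), as described further on. Each had a higher r with Nfatc1 (0.922 and 0.898), and any part of the promoters in these values was not tested. Each sequence is from RefSeq on GRCm38.p6 and runs from 250 bases before to 50 bases after the annotated start. Capitals mark matches on either strand to TATAA, at which TBP binds, and to GGGCGG, at which Sp1 binds.
Tnfsf11, minus strand, chr14:78307994-78308293: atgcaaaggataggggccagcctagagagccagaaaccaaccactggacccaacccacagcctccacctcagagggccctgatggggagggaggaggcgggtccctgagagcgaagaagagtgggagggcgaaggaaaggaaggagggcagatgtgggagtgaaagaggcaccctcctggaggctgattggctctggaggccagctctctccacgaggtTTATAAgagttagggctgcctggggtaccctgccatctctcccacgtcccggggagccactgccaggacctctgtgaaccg
Tnfrsf11a, plus strand, chr1:105780473-105780772: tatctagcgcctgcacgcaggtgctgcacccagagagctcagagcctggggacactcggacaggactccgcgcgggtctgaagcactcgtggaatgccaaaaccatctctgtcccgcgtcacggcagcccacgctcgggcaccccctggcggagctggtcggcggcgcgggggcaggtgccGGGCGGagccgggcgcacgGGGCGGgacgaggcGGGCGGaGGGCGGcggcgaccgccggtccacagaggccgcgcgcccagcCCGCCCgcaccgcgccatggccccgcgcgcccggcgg

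The 2 windows differed in these letters. The Tnfsf11 window held TATAA on both strands, overlapping in 1 stretch that starts at position −31 from the annotated start, and no GGGCGG. The Tnfrsf11a window held GGGCGG at 5 places and no TATAA. Of 32851 promoter windows of the same length, 24.9% held TATAA and 35.7% GGGCGG. Of the other members, only Csf1 and Traf6 were searched, and each held GGGCGG at 2 places. The windows of the remaining members, among them Nfatc1 and Csf1r, were not searched.

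Levels between genes were compared as CPM per kilobase of exon. Itgb3 was the most abundant member at 77.2 ± 9.93 CPM per kb (mean ± SD, n = 12), followed by Csf1r at 39.1 ± 4.24. Nfatc1 (9.99 ± 0.898) and Csf1 (9.71 ± 1.02) stood next and did not separate, with Nfatc1 above Csf1 in 7 of 12 mice. Traf6 was at 5.66 ± 0.281, Il34 at 4.73 ± 0.944 and Tnfrsf11b at 4.61 ± 1.33 CPM per kb. Il34 exceeded Tnfrsf11b in 6 of 12 mice. Tnfsf11 at 2.77 ± 0.749 and Tnfrsf11a at 1.53 ± 0.361 CPM per kb were the lowest. Per exon length, OPG was above RANKL and RANKL above RANK in 12 of 12 mice.

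**Figure D1:**
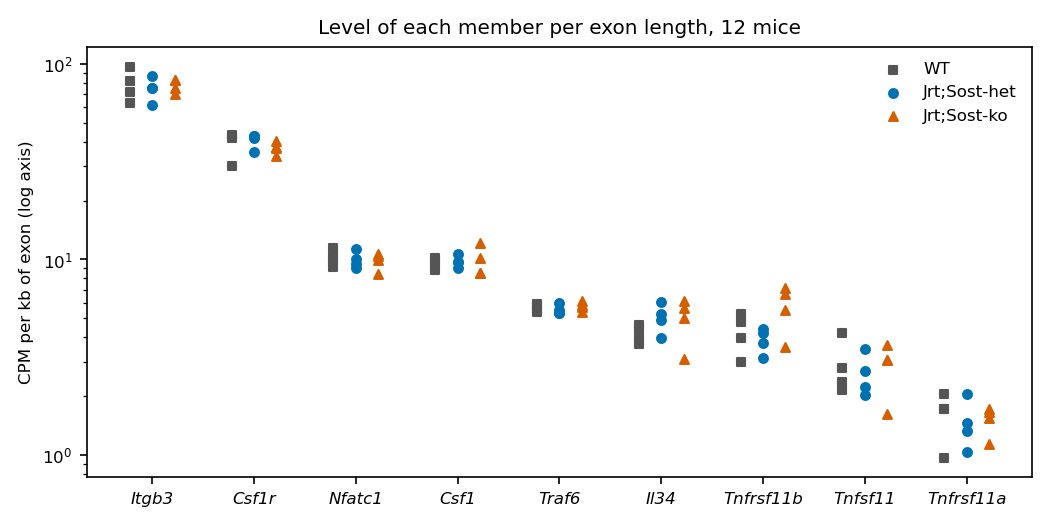
Level of each member in CPM per kb of exon on a log axis, with 1 point per mouse (WT squares, Jrt;Sost-het circles, Jrt;Sost-ko triangles). The order runs from Itgb3 at 61.9 to 97.0 CPM per kb down to Tnfrsf11a at 0.966 to 2.06, and the groups lie within each other's range for most genes.

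The spread over mice differed between members. The coefficient of variation over the 12 mice was 4.95% for Traf6, 8.99% for Nfatc1, 10.5% for Csf1, 10.8% for Csf1r and 12.9% for Itgb3. It was 19.9% for Il34, 23.5% for Tnfrsf11a, 27.0% for Tnfsf11 and 28.8% for Tnfrsf11b. Counting error alone gives 5.44% to 9.53% for Tnfsf11, whose counts were between 110 and 338, so most of its spread lay between mice and not in the depth.

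RANKL did not separate the groups. Tnfsf11 was at 4.80, 5.27, 6.23 and 9.36 CPM in WT mice 1 to 4, at 7.81, 4.53, 6.01 and 4.99 CPM in Jrt;Sost-het mice and at 6.83, 6.81, 8.12 and 3.60 CPM in Jrt;Sost-ko mice. The highest mouse was a WT animal and the lowest a Jrt;Sost-ko animal, and the 3 groups overlapped. The log2 fold change in Jrt;Sost-ko versus Jrt;Sost-het was 0.13 (SE 0.265, adjusted p = 0.945, edgeR), and the 95% interval of the fold ran from 0.720 to 1.66. Against WT, the log2 fold change was −0.14 (SE 0.257) in Jrt;Sost-het and −0.01 (SE 0.296) in Jrt;Sost-ko.

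OPG had the largest log2 fold change of the 9 genes in both comparisons of Jrt;Sost-ko, while in Jrt;Sost-het versus WT it was Il34. Tnfrsf11b was at 18.7, 20.3, 15.5 and 9.99 CPM in Jrt;Sost-ko mice 1 to 4, at 11.9, 12.4, 10.5 and 8.84 CPM in Jrt;Sost-het mice and at 11.2, 8.38, 13.4 and 14.9 CPM in WT mice. Jrt;Sost-ko mice 1 to 3 lay above all 8 mice of the other groups, while mouse 4 lay within them, so the groups overlapped. Means were 16.1 ± 4.53 CPM in Jrt;Sost-ko, 10.9 ± 1.60 in Jrt;Sost-het and 11.97 ± 2.84 in WT (SD, n = 4 each). In Jrt;Sost-ko versus Jrt;Sost-het, the log2 fold change was 0.57 (SE 0.214), a 1.48-fold higher level with a 95% interval of 1.06 to 2.07. The unadjusted p was 0.0269 and the adjusted p 0.901 by edgeR over 16739 genes, where 5.02% of all genes had an unadjusted p under 0.05. The exact permutation test of log2 CPM gave p = 0.114 (two-sided). Against WT, the log2 fold change in Jrt;Sost-ko was 0.43 (SE 0.252, adjusted p = 1, edgeR). In Jrt;Sost-het versus WT it was −0.14 (SE 0.192).

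The size of the difference in OPG varied with single mice, while its sign held in all 8 fits that left out a mouse. Without Jrt;Sost-ko mouse 4 the log2 fold change versus Jrt;Sost-het was 0.73 (unadjusted p = 0.00092, adjusted p = 0.580, edgeR), and without Jrt;Sost-ko mouse 2 it was 0.44. Of the markers of osteocytes, cells that secrete OPG, 6 of 6 had a higher mean in Jrt;Sost-ko than among Jrt;Sost-het mice, at a median of 0.39 on the log2 scale against 0.00 over all genes, and their summed level was 478 to 909.6 CPM in Jrt;Sost-ko, 337 to 734 in Jrt;Sost-het and 268 to 799 in WT. The order of mice was the same for Tnfrsf11b and for the osteocyte sum within Jrt;Sost-ko, but not within Jrt;Sost-het or WT. Osteoblast markers were higher in 6 of 7 genes with a median of 0.19. Marrow stroma and adipocyte markers, from cells that can also express Tnfrsf11b, went the other way, with 2 higher and 4 lower of 6 and a median of −0.04. An unadjusted p under 0.05 by edgeR was found for 2 of 6 osteocyte, 1 of 7 osteoblast and 0 of 6 marrow stroma and adipocyte markers. All of those had a higher mean in Jrt;Sost-ko, and the share over all genes was 5.02%. None of these markers was at 0 in a group or passed the adjusted threshold, which 0.00597% of all genes passed. Their part in the level of Tnfrsf11b was not tested.

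**Figure D2:**
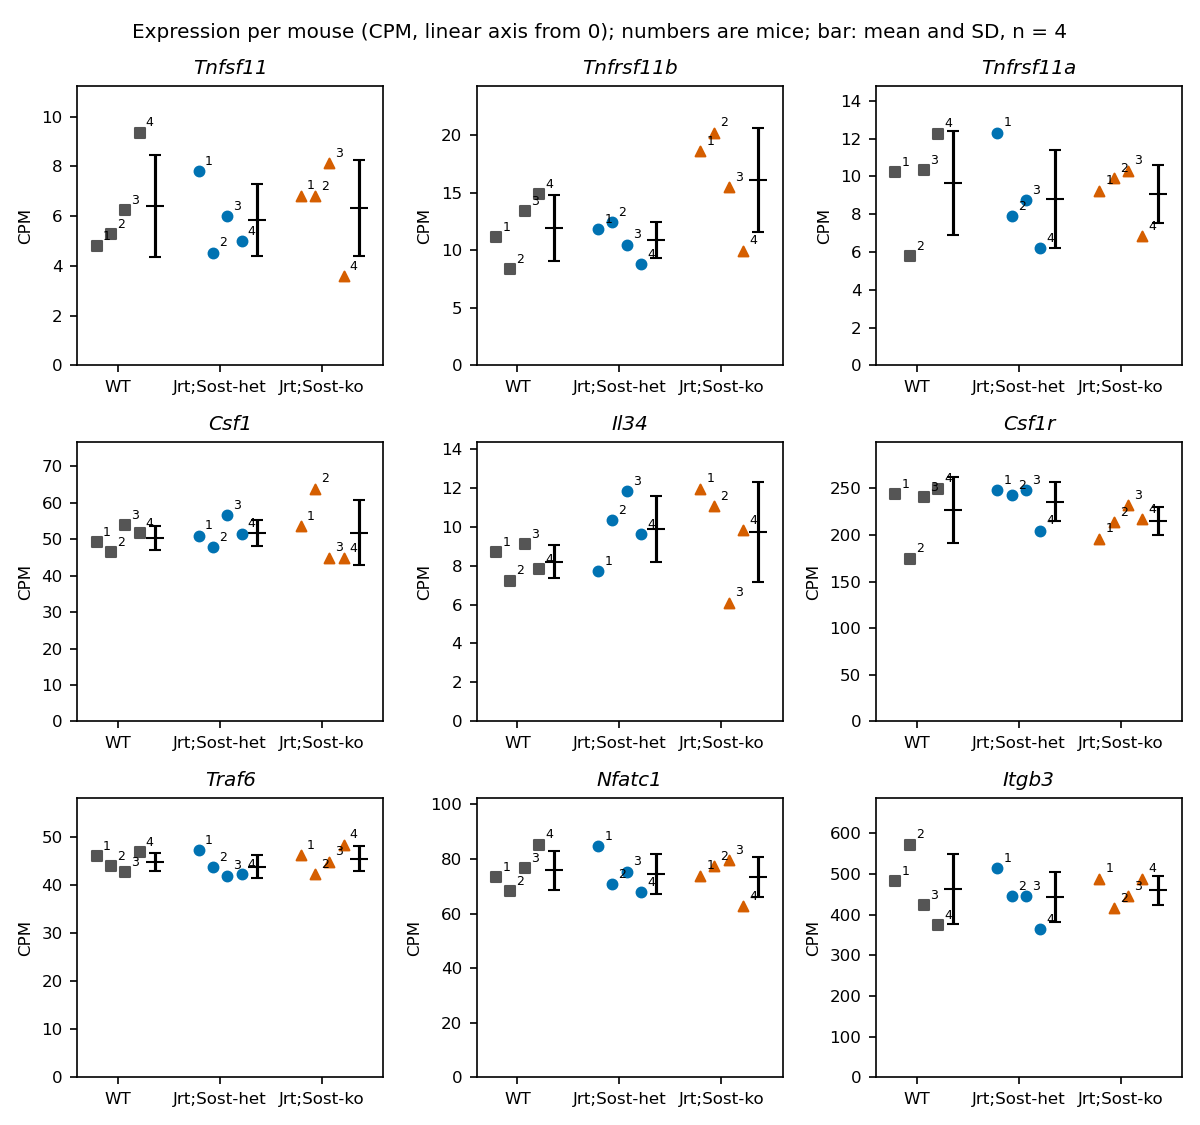
CPM of each of the 9 genes in the 12 mice, on linear axes from 0. Points are mice with their numbers, and the bars at the right of each group give the mean and SD (n = 4). Jrt;Sost-ko mice 1 to 3 lie highest for Tnfrsf11b, from 15.5 to 20.3 CPM, and Jrt;Sost-ko mouse 4 at 9.99 CPM lies among the other groups.

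The ratio of RANKL to OPG was formed within each mouse from counts, which needs no scaling between libraries. It was 0.658, 0.364, 0.571 and 0.564 in Jrt;Sost-het mice 1 to 4, 0.366, 0.336, 0.524 and 0.361 in Jrt;Sost-ko mice and 0.430, 0.629, 0.464 and 0.628 in WT mice. Jrt;Sost-ko mice 1, 2 and 4 had 3 of the 4 lowest ratios, with Jrt;Sost-het mouse 2 among them, and Jrt;Sost-ko mouse 3 lay within the other groups. The exact 95% interval from counting was 0.288 to 0.391 for Jrt;Sost-ko mouse 2 and 0.549 to 0.787 for Jrt;Sost-het mouse 1, so some mice differed by more than counting error. These intervals cover counting error only.

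The mean ratio was 0.397 ± 0.0859 in Jrt;Sost-ko, 0.539 ± 0.124 in Jrt;Sost-het and 0.538 ± 0.106 in WT (SD, n = 4 each). Per kilobase of exon the means were 0.500, 0.680 and 0.678. The log2 difference was −0.43 in Jrt;Sost-ko versus Jrt;Sost-het, a fold of 0.741, with an exact permutation p = 0.0857 (two-sided, adjusted p = 0.129 over 3 comparisons). Its 95% interval, from inverting the exact test, was −0.96 to 0.53. Against WT, the difference in Jrt;Sost-ko was −0.44, with the interval −0.90 to 0.28 (exact permutation p = 0.0857, adjusted p = 0.129). The 2 comparisons share the Jrt;Sost-ko mice. In Jrt;Sost-het versus WT it was −0.01, with the interval −0.78 to 0.61 (exact permutation p = 1). With 4 mice against 4, the smallest p the test allows is 0.0286. Mean Tnfsf11 was 6.34 CPM in Jrt;Sost-ko, 5.83 in Jrt;Sost-het and 6.42 in WT. The low ratios were of more than 1 kind: Jrt;Sost-ko mice 1 and 2 had the highest Tnfrsf11b of the 12 mice, while mouse 4 had the lowest Tnfsf11 and a Tnfrsf11b within the other groups.

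**Figure D3:**
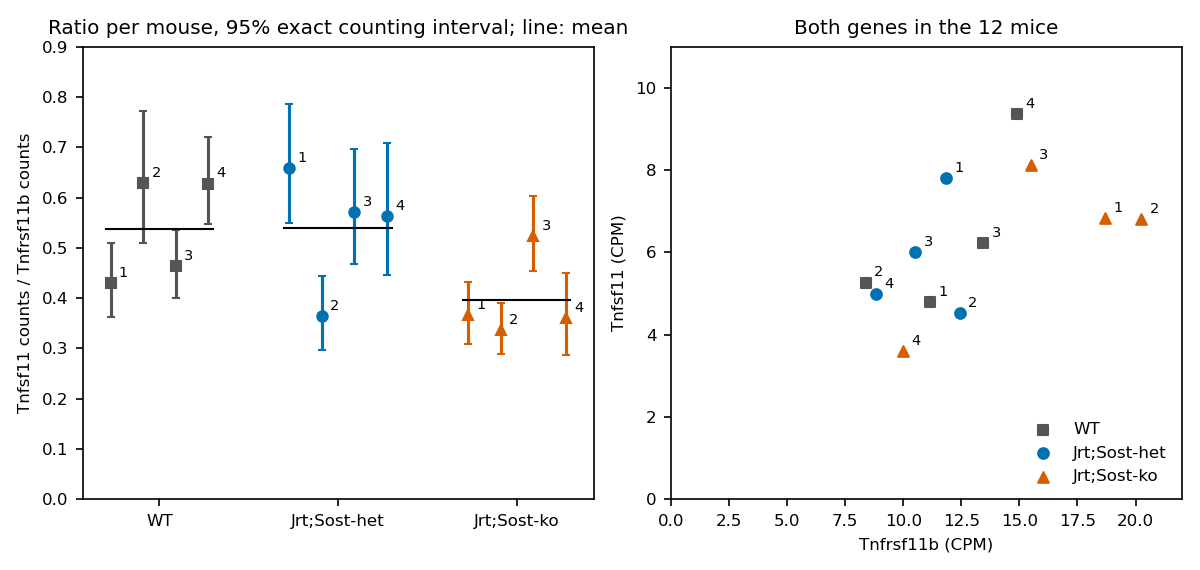
Left, Tnfsf11 counts divided by Tnfrsf11b counts in each mouse with the exact 95% counting interval, and the group mean as a line (0.397 in Jrt;Sost-ko, 0.539 in Jrt;Sost-het, 0.538 in WT). Right, Tnfsf11 against Tnfrsf11b in CPM for the 12 mice, where Jrt;Sost-ko mice 1 and 2 lie to the right of all others at 6.83 and 6.81 CPM of Tnfsf11.

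RANK, the receptor on the osteoclast lineage, was at 10.2, 5.78, 10.3 and 12.3 CPM in WT mice 1 to 4, at 12.3, 7.91, 8.75 and 6.20 CPM in Jrt;Sost-het mice and at 9.25, 9.89, 10.3 and 6.85 CPM in Jrt;Sost-ko mice. WT mouse 2 was the lowest, and WT mouse 4 and Jrt;Sost-het mouse 1 were the highest. The log2 fold change of Tnfrsf11a was 0.05 (SE 0.216) in Jrt;Sost-ko versus Jrt;Sost-het, −0.14 (SE 0.269) in Jrt;Sost-het versus WT and −0.09 (SE 0.236) in Jrt;Sost-ko versus WT.

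Traf6, the adaptor below RANK, was the least variable member. It was at 45.9, 43.9, 42.6 and 46.7 CPM in WT mice, at 47.1, 43.7, 41.9 and 42.2 CPM in Jrt;Sost-het mice and at 46.2, 42.2, 44.8 and 48.4 CPM in Jrt;Sost-ko mice. Its highest mouse was 1.15 times its lowest. The 95% interval of its fold in Jrt;Sost-ko versus Jrt;Sost-het was 0.944 to 1.15.

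Nfatc1, whose product drives the osteoclast programme, was at 73.3, 68.1, 76.6 and 85.3 CPM in WT mice, at 84.6, 70.8, 75.4 and 67.8 CPM in Jrt;Sost-het mice and at 73.9, 77.4, 79.5 and 62.7 CPM in Jrt;Sost-ko mice. The order of mice within a group resembled that of Tnfrsf11a, with Jrt;Sost-ko mouse 4, Jrt;Sost-het mouse 4 and WT mouse 2 lowest in their groups for both genes. The fold of Nfatc1 in Jrt;Sost-ko versus Jrt;Sost-het was 0.986, with a 95% interval of 0.849 to 1.14.

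Csf1 and Il34, which encode the ligands of CSF1R, did not separate the groups. Csf1 was at 51.0, 47.8, 56.6 and 51.5 CPM in Jrt;Sost-het mice, at 53.7, 63.9, 44.9 and 44.9 CPM in Jrt;Sost-ko mice and at 49.3, 46.4, 53.9 and 51.6 CPM in WT mice. The Jrt;Sost-ko mice held both the highest and the lowest value, and their mean, 51.8 ± 9.05 CPM, was close to the 51.7 ± 3.62 of Jrt;Sost-het. Il34 was at 7.73, 10.3, 11.8 and 9.59 CPM in Jrt;Sost-het mice, at 11.9, 11.1, 6.10 and 9.83 CPM in Jrt;Sost-ko mice and at 8.68, 7.22, 9.11 and 7.81 CPM in WT mice. Both Jrt groups had a higher mean of Il34 than WT, with log2 fold changes of 0.27 (SE 0.146, unadjusted p = 0.105, edgeR) in Jrt;Sost-het and 0.25 (SE 0.203, unadjusted p = 0.256, edgeR) in Jrt;Sost-ko. These comparisons share the WT mice, and the adjusted p was 1 in both.

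Csf1r, the receptor on monocytes, macrophages and osteoclasts, was at 248, 243, 248 and 205 CPM in Jrt;Sost-het mice, at 196, 214, 232 and 217 CPM in Jrt;Sost-ko mice and at 243, 174, 241 and 249.7 CPM in WT mice. In each of the Jrt;Sost-het and WT groups, 1 mouse lay well below the other 3. The log2 fold change in Jrt;Sost-ko versus Jrt;Sost-het was −0.13 (SE 0.0813, unadjusted p = 0.142, adjusted p = 0.901, edgeR).

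Itgb3 encodes a beta chain shared by the integrin by which osteoclasts hold on to bone and the integrin by which platelets hold fibrinogen. It was at 483, 573, 423 and 375 CPM in WT mice, at 515, 446, 446 and 365 CPM in Jrt;Sost-het mice and at 489, 415, 446 and 489 CPM in Jrt;Sost-ko mice. WT mouse 2, the lowest mouse for RANK, was the highest for Itgb3. Its log2 fold change was 0.06 (SE 0.109) in Jrt;Sost-ko versus Jrt;Sost-het, −0.07 (SE 0.147) in Jrt;Sost-het versus WT and −0.01 (SE 0.132) in Jrt;Sost-ko versus WT.

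Over the 9 genes, 0 passed the adjusted threshold in Jrt;Sost-ko versus Jrt;Sost-het by edgeR, DESeq2 or limma-voom, where edgeR called 0.00597% of the genes tested. At an unadjusted p under 0.05, edgeR had 1 of the 9, DESeq2 1 and limma-voom 2, beside 5.02%, 5.41% and 8.86% of all genes. In Jrt;Sost-het versus WT, 0 of 9 passed by the 3 tools, beside 0% of all genes by edgeR, and 0 of 9 had an unadjusted p under 0.05 by any of them, beside 2.14%, 2.4% and 4.59% of all genes. In Jrt;Sost-ko versus WT, 0 of 9 passed by the 3 tools, beside 0.00583% of all genes, and 0 had an unadjusted p under 0.05 by edgeR or DESeq2 and 1 by limma-voom, beside 3.89%, 4.61% and 8.98% of all genes. Groups did not overlap for 0 of 9 members in any comparison, beside 3.05%, 1.5% and 2.36% of all genes. The median size of the log2 fold change over the members was 0.06, 0.07 and 0.05, against 0.10, 0.08 and 0.10 over all genes tested.

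**Figure D4:**
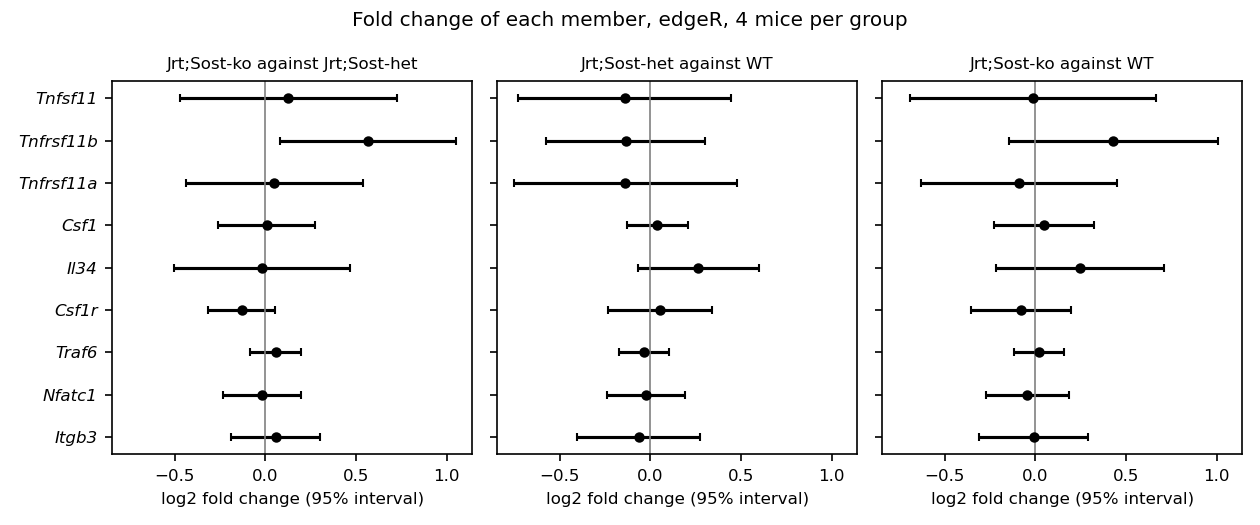
Log2 fold change of each gene with its 95% interval from edgeR in the 3 comparisons (4 mice per group). The interval of Tnfrsf11b in Jrt;Sost-ko versus Jrt;Sost-het, 0.08 to 1.05, lies above 0 before adjustment, and the other 26 include 0.

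Across mice, several members varied together with lists of markers. Relations were tested in 7 pairs, over 12 mice with 100000 permutations and adjustment over the 7. All pairs but Tnfsf11 with Tnfrsf11b set a member against markers of cells known to express it. The pairs were chosen with earlier results of these data known. Both measures of a pair come from the same library. Log2 CPM of Tnfrsf11a followed the mean log2 CPM of 14 osteoclast effectors (Acp5, Ctsk, Mmp9, Car2 and others that act in resorption), at a Pearson's r of 0.928 (p = 1e-05, which is the smallest the permutations can give, adjusted p = 7e-05) and Spearman's rho = 0.902 (permutation p = 0.0002). Without Jrt;Sost-het mouse 1 and WT mouse 2, the mice farthest from the median, r was 0.912, and on deviations from the group means it was 0.9503. Nfatc1 followed the same list with r = 0.793 (permutation p = 0.00205, adjusted p = 0.00478) and rho = 0.832 (permutation p = 0.00133). Without those mice r was 0.826, and on deviations from the group means 0.808. Jrt;Sost-het mouse 1 and WT mouse 4 had the highest mean of the osteoclast effectors (6.46 and 6.36). They also had the largest sums of chondrocyte markers (3529 and 2793 CPM), whose part in these relations was not tested.

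For Itgb3, no single relation with the osteoclast effectors was seen. Its r over the 12 mice with that list was −0.299 (permutation p = 0.348, adjusted p = 0.487) and rho was −0.105 (permutation p = 0.75), and r was −0.139 without the same 2 mice. The sign was positive among the 4 Jrt;Sost-het mice (r = 0.863) and negative among the 4 mice of each other group (−0.849 in Jrt;Sost-ko and −0.888 in WT). The value over 12 mice thus joins opposite signs, and with 4 mice a group the difference in sign was not tested. With the mean of 7 megakaryocyte and platelet markers (Itga2b, Pf4, Gp9 and others), its r was 0.853 (permutation p = 0.00039, adjusted p = 0.00137) and rho 0.818 (permutation p = 0.00191). Without WT mice 2 and 4, which had the highest and the lowest sum of these markers at 1479 and 712 CPM, r was 0.727. The sign was positive in each of the 3 groups, as it was for Tnfrsf11a and Nfatc1 with the osteoclast effectors. On deviations from the group means it was 0.894. The difference between the 2 correlations of Itgb3 was not tested.

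**Figure D5:**
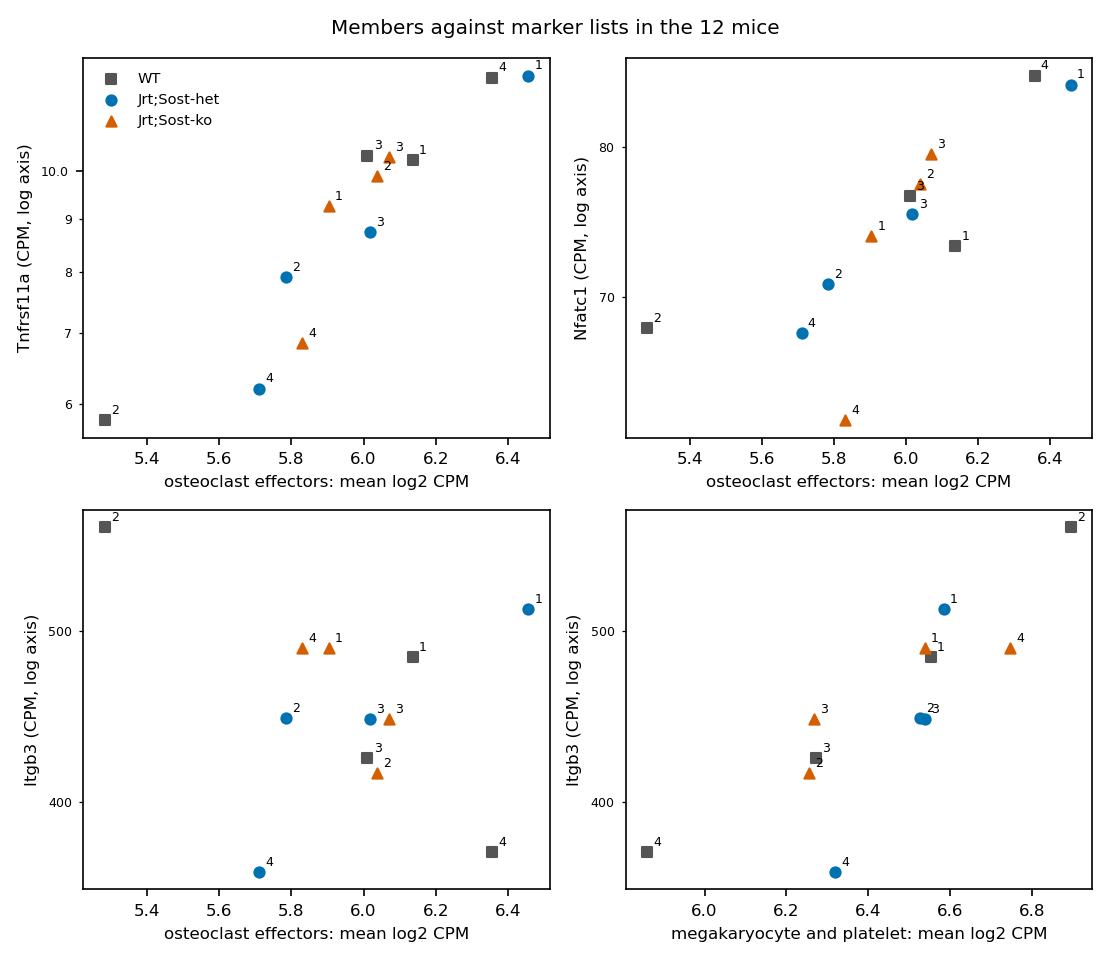
CPM of Tnfrsf11a, Nfatc1 and Itgb3 on log axes against the mean log2 CPM of the osteoclast effector list, and of Itgb3 against the megakaryocyte and platelet list, with 1 numbered point per mouse. Tnfrsf11a and Nfatc1 rise along the osteoclast axis (r = 0.928 and 0.793), and Itgb3 rises along the megakaryocyte axis (r = 0.853).

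The other relations did not pass. Tnfsf11 and Tnfrsf11b gave r = 0.596 (permutation p = 0.0403, adjusted p = 0.0705) and rho = 0.636 (permutation p = 0.0295, adjusted p = 0.0516), with r = 0.661 without Jrt;Sost-ko mice 1 and 2. Csf1r with 10 macrophage markers gave r = 0.180 (permutation p = 0.58, adjusted p = 0.58) and rho = 0.133 (permutation p = 0.683), and r = 0.118 without WT mice 2 and 4. Il34, which keratinocytes also make, gave r = −0.207 with 9 epidermis markers (permutation p = 0.522, adjusted p = 0.58) and rho = −0.0699 (permutation p = 0.835), and r = −0.119 without WT mice 3 and 4. Those 2 mice held the most epidermis RNA, at 9.11 and 7.81 CPM of Il34. For Tnfsf11 with Tnfrsf11b the sign was positive in each group of 4 mice, with r of 0.205 in Jrt;Sost-het, 0.831 in Jrt;Sost-ko and 0.746 in WT. Signs differed between groups for Csf1r and Il34, with no test. For Csf1r, r was 0.559 in Jrt;Sost-het, −0.319 in Jrt;Sost-ko and 0.311 in WT, and for Il34 it was 0.920, −0.992 and 0.212. The epidermis sums were only 8.45 to 16.3 CPM in Jrt;Sost-het and 6.32 to 9.66 CPM in Jrt;Sost-ko. Of the 9 markers, 4 passed the filter on low counts. The values of r for Il34 in the Jrt groups thus rest on very low counts and carry little meaning.

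As a description over the same 12 mice, with no test, r was 0.922 between Tnfsf11 and Nfatc1, 0.898 between Tnfrsf11a and Nfatc1 and 0.736 between Tnfsf11 and Tnfrsf11a. Jrt;Sost-het mouse 1 and WT mouse 4 were among the 3 highest mice for each of these genes, and they also had the largest sums of 7 chondrocyte markers, 3529 and 2793 CPM, against 83.9 to 845 CPM in the other 10 mice. Growth plate chondrocytes are known to express Tnfsf11, and the part of those markers in the 3 genes was not tested. Chondrocyte markers had a lower mean in Jrt;Sost-ko than among Jrt;Sost-het for 7 of 7 genes, at a median log2 fold change of −1.90, with none called. An unadjusted p under 0.05 by edgeR was found for 2 of the 7, beside 5.02% of all genes.

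The genes most like each member were the 3 with the highest r over the 12 mice among 17245 genes. For Tnfsf11 they were Lclat1 (0.931), Tsc22d3 (0.915) and Rapgef2 (0.902), and for Tnfrsf11b they were Cfhr2 (0.948), Tgoln1 (0.947) and Ccnd2 (0.941). For Tnfrsf11a they were C77080 (0.971), Tgfbr1 (0.959) and St8sia6 (0.951), and for Nfatc1 they were Edil3 (0.946), Kidins220 (0.939) and Hpgd (0.914). For Itgb3 they were Rab27b (0.953), Pls1 (0.940) and Inafm2 (0.930). Il34 was nearest to Serpina3n (0.912), Serpina3c (0.884) and C2 (0.872). For Csf1r (Abca9, Qprt and Lzts3), Csf1 (Adck4, Inhba and Ugdh) and Traf6 (Paqr5, Gm27003 and 0610010K14Rik) the values lay between 0.823 and 0.882. These values have no test, and they were picked from many genes over few mice.

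The rest of the pathway was read from 6 lists, of which 100 genes were tested. In Jrt;Sost-ko versus Jrt;Sost-het, 0 of 100 passed the adjusted threshold by edgeR, DESeq2 or limma-voom, and 3, 4 and 7 had an unadjusted p under 0.05, each a lower share than the 5.02%, 5.41% and 8.86% of all genes. The osteoclast effectors had a higher mean in 2 and a lower mean in 12 of 14 genes, at a median of −0.07 on the log2 scale against 0.00 over all genes, of which 50.4% were above 0. Mmp9, a secreted gelatinase, was at 971 ± 67.6 CPM in Jrt;Sost-ko and 1119 ± 149 in Jrt;Sost-het (log2 fold change −0.20, SE 0.108). Car2, the carbonic anhydrase that supplies protons for resorption, was at 1551 ± 364 and 1335 ± 203 CPM (log2 fold change 0.22, SE 0.179) and Tcirg1, a subunit of the osteoclast proton pump, at 146 ± 8.93 and 155 ± 15.5 CPM. Neutrophils also express Mmp9 and erythroid cells Car2. In this comparison neutrophil markers had a lower mean in 6 of 8 genes (median −0.10), erythroid markers a higher mean in 7 of 7 (median 0.11) and skeletal muscle markers a lower mean in 12 of 12 (median −1.01), with none called, and their part in these levels was not tested.

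Upstream of these, the medians of the lists lay between 0.02 and 0.05 on the log2 scale. RANK adaptors and NF-kB genes were higher in 13 and lower in 9 of 22, with a median of 0.02. In this list Map3k14, the kinase NIK of the non-canonical pathway, had a log2 fold change of −0.15 (SE 0.085) and Gab2, an adaptor bound to RANK, 0.13 (SE 0.073). Genes of ITAM costimulation and calcium signalling were higher in 14 and lower in 5 of 19, with a median of 0.05. Trem2, a receptor that pairs with the adaptor Tyrobp, had a log2 fold change of −0.31 (SE 0.199), and Tyrobp −0.12 (SE 0.117). Osteoclast transcription factors were higher in 8 and lower in 6 of 14 tested of 15, with a median of 0.02. Fos, which acts with NFATc1, was at 16.8 ± 9.15 CPM in Jrt;Sost-ko, 21.0 ± 5.43 in Jrt;Sost-het and 13.4 ± 9.36 in WT, a wide spread within each group.

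Regulators and partners of RANKL and OPG were higher in 12 and lower in 10 of 22 tested of 24, with a median of 0.02. Il11ra1, the alpha chain of the interleukin 11 receptor, was at 23.2 ± 3.30 CPM in Jrt;Sost-ko and 28.6 ± 3.46 in Jrt;Sost-het (log2 fold change −0.29, SE 0.126, unadjusted p = 0.0451, adjusted p = 0.901, edgeR). Tnf, a cytokine that raises RANKL, was at 5.25 ± 1.52 and 3.68 ± 0.970 CPM (log2 fold change 0.51, SE 0.255). Il17a had no count in any mouse.

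Other myeloid cytokines and receptors were higher in 4 and lower in 5 of 9 tested of 11, with a median of −0.04. Csf3r, the G-CSF receptor of neutrophils, was at 220.1 ± 34.3 CPM in Jrt;Sost-ko and 282 ± 13.3 in Jrt;Sost-het (log2 fold change −0.35, SE 0.104, unadjusted p = 0.00775, adjusted p = 0.901, edgeR). Flt3l, a growth factor of dendritic cell precursors, was at 10.3 ± 0.654 and 12.1 ± 0.624 CPM (log2 fold change −0.22, SE 0.0851, unadjusted p = 0.0291, adjusted p = 0.901, edgeR). For both genes every Jrt;Sost-ko mouse lay below every Jrt;Sost-het mouse, as it did for 1.41% of all genes. Neutrophil markers were lower in 6 of 8 genes, with a median of −0.10 and sums of 15579 to 23147 CPM in Jrt;Sost-ko against 18433 to 24335 in Jrt;Sost-het, and their part in Csf3r was not tested.

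Against WT, 0 of 100 list genes passed by the 3 tools in either Jrt group. At an unadjusted p under 0.05, edgeR had 2, DESeq2 3 and limma-voom 6 genes for Jrt;Sost-het, while for Jrt;Sost-ko they had 3, 6 and 13. Over all genes these shares were 2.14%, 2.4% and 4.59% for Jrt;Sost-het and 3.89%, 4.61% and 8.98% for Jrt;Sost-ko. Regulators and partners of RANKL and OPG had a higher mean than in WT for 19 of 22 genes in Jrt;Sost-het (median log2 fold change 0.12) and for 18 of 22 in Jrt;Sost-ko (median 0.10), where 51.3% and 49.1% of all genes were above 0. Osteoblast markers were higher than in WT in 7 of 7 genes in each Jrt group (medians 0.19 and 0.30), osteocyte markers in 4 and 5 of 6 and neutrophil markers lower in 8 of 8 in each (medians −0.08 and −0.17), and their part in the list was not tested. The osteoclast effectors were lower than in WT in 10 of 14 genes in each Jrt group, with medians of −0.05 and −0.11. The comparisons share the WT mice, whose colony differed.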

How the data were processed

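RNA from tibia shafts of 12 mice, 4 per group, was sequenced as paired-end poly(A) libraries. The authors aligned reads to GRCm38 with STAR (per the labels, bcl2fastq 2.20, Cufflinks, Cuffdiff and DESeq were also used). The counting tool and its strand setting are not given in the sources used here. The matrix deposited by the authors holds raw counts per gene without normalization, and only it was analysed. The counts of single mice and the authors' comparison tables, which hold fold changes, p-values and counts per mouse, were not used. Groups came from the labels, except that Sost+/- of Jrt;Sost-het is from the paper.

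CPM used TMM factors (0.978 to 1.02) and log2 CPM a prior count of 2. The 8 mice of a comparison were fitted alone with edgeR 4.0.16 in R 4.3.3 (filterByExpr, TMM, glmQLFit, glmQLFTest), calling genes at an adjusted p (Benjamini-Hochberg) below 0.05. SE is the log2 fold change divided by the root of F. Alternatives were DESeq2 1.42.0, limma-voom (limma 3.58.1), other scalings and filters, and leaving out mice. The edgeR fit was tested on simulated data. For single values, exact permutation tests (two-sided) ran over 70 arrangements. Exon lengths are unions of annotated exons, and 98.8% of gene IDs matched the annotation used. Intervals of a ratio in a mouse are exact binomial (Clopper-Pearson).

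The members, lists and tests were chosen with earlier results of these data known. Named genes were the 9 members, Sost, the 4 genes of each pathway list with the smallest unadjusted p in Jrt;Sost-ko versus Jrt;Sost-het with any called gene, and the 3 genes most like each member. Of the 4 per list, those not named had no unadjusted p under 0.05. The 13 marker lists were read for other cells.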

Additional observations from a re-analysis of the deposited data

Results flagged for a closer look

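Among 69 groups of 4 mice checked for a mouse far from the other 3, 4 were flagged by Dixon's ratio, the gap to the nearest mouse divided by the range. About 3.45 are flagged by chance. Csf1r was low in Jrt;Sost-het mouse 4 (ratio 0.883), with 205 CPM against 243 to 248 CPM in the others, and in WT mouse 2 (ratio 0.897), with 174 CPM against 241 to 249.7 CPM. The epidermis markers were high in Jrt;Sost-ko mouse 3 (ratio 0.931), at a sum of 9.66 CPM. The sum of marrow stroma and adipocyte markers was low in WT mouse 4 (ratio 0.835), at 2072 CPM.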

How the results depend on the processing

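No alternative brought any of the 9 members past the adjusted threshold. Of 450 alternative values of the members' log2 fold changes, 402 kept their sign and 48 reversed it, 33 of them on leaving out a mouse, and no main value that reversed was above 0.14 in size. Tnfrsf11b kept its sign in Jrt;Sost-ko versus Jrt;Sost-het, at 0.55 to 0.65 under 8 settings and 0.44 to 0.73 on leaving out a mouse, with adjusted p from 0.479 to 1. Versus WT it was 0.41 to 0.72 and 0.29 to 0.60. The cause of the changes below was not tested.

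The number of genes called in Jrt;Sost-ko versus Jrt;Sost-het was 15 with DESeq2 and 0 with limma-voom (1483 at an unadjusted p under 0.05), beside 1 with edgeR, and between 0 and 3 on leaving out a mouse. Leaving out Jrt;Sost-ko mouse 1, 3 or 4 gave 0, so that Sost was not called, and leaving out Jrt;Sost-het mouse 2 gave 2 and mouse 3 gave 3. In Jrt;Sost-ko versus WT it was 14 with DESeq2, 2 with no filter on low counts, 2 with limma-voom and between 0 and 2 on leaving out a mouse. In Jrt;Sost-het versus WT it was 0 throughout.

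In Jrt;Sost-ko versus Jrt;Sost-het, Csf1 reversed to −0.0034 with upper-quartile scaling and to −0.0027 with at least 10 counts in every mouse, and with limma-voom Il34 reversed to 0.038 and Nfatc1 to 0.016. On leaving out a mouse the values were −0.017 to 0.32 for Tnfsf11, −0.083 to 0.25 for Tnfrsf11a, −0.11 to 0.068 for Csf1, −0.14 to 0.15 for Il34, −0.063 to 0.044 for Nfatc1 and −0.024 to 0.13 for Itgb3.

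Without WT mice 3 and 4, which held the most epidermis RNA, Jrt;Sost-het versus WT reversed to 0.22 for Tnfsf11, 0.17 for Tnfrsf11b, 0.14 for Tnfrsf11a and 0.087 for Nfatc1, and Jrt;Sost-ko versus WT to 0.34 for Tnfsf11, 0.18 for Tnfrsf11a, 0.040 for Csf1r and 0.055 for Nfatc1. With limma-voom Jrt;Sost-ko versus WT reversed to 0.16 for Tnfsf11, 0.0010 for Nfatc1 and 0.0019 for Itgb3. On leaving out a mouse Jrt;Sost-het versus WT gave −0.31 to 0.094 for Tnfsf11, −0.0062 to 0.075 for Csf1, −0.054 to 0.11 for Csf1r, −0.088 to 0.032 for Nfatc1 and −0.16 to 0.052 for Itgb3. Jrt;Sost-ko versus WT gave −0.16 to 0.22 for Tnfsf11, −0.27 to 0.046 for Tnfrsf11a, −0.071 to 0.11 for Csf1, −0.0093 to 0.055 for Traf6, −0.093 to 0.023 for Nfatc1 and −0.10 to 0.11 for Itgb3.

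The log2 difference in the ratio of Tnfsf11 to Tnfrsf11b was −0.64 to −0.43 in Jrt;Sost-ko versus Jrt;Sost-het and −0.57 to −0.41 versus WT under the other settings, and −0.61 to −0.33 and −0.58 to −0.36 on leaving out a mouse, with exact permutation p from 0.0571 to 0.267. In Jrt;Sost-het versus WT it reversed to 0.0071 with a pseudocount of 10 counts, to 0.072 with medians and to 0.020 without WT mice 3 and 4, and it was −0.11 to 0.17 on leaving out a mouse. Relations without WT mice 3 and 4 or on deviations from group means, chosen after seeing the data, kept their sign and their side of the threshold, except that r of Il34 with the epidermis list reversed to 0.020 on deviations.

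No paired analysis was possible because the labels link no mouse to a mouse of another group. Precision was limited mainly by the spread among 4 mice a group. Tnfsf11, Tnfrsf11a, Tnfrsf11b and Il34 had counts as low as 110, 148, 211 and 204, and counting error was at most 9.53%, in Tnfsf11, below their coefficients of variation over the 12 mice.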

Other observations

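Markers of other cells were also summed per mouse. B cell markers were at 492 to 679 CPM, T cell markers at 23.1 to 64.6 CPM, erythroid markers at 15393 to 30086 CPM and endothelial markers at 241 to 384 CPM over the 12 mice. Marrow stroma and adipocyte markers, from cells that can also express Tnfsf11, Tnfrsf11b and Csf1, were at 1776 to 2773 CPM. The lists held 7 B cell, 6 T cell, 7 erythroid, 6 endothelial and 6 marrow stroma and adipocyte markers. In the Jrt;Sost-ko versus Jrt;Sost-het comparison, 0 genes of these 5 lists passed the adjusted threshold by edgeR, beside 0.00597% of all genes. Only 1 of their genes, a B cell marker, had an unadjusted p under 0.05, with a higher mean in Jrt;Sost-ko, beside 5.02% of all genes. Erythroid markers had a higher mean in Jrt;Sost-ko in 7 of 7 genes (median log2 fold change 0.11) and endothelial markers a lower mean in 6 of 6 (median −0.13). B cell markers were higher in 5 of 7 and T cell markers in 5 of 6. Marrow stroma and adipocyte markers were higher in 2 and lower in 4 of 6 (median −0.04). Of all genes, 50.4% were above 0.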
